A study of Mus musculus with 3 samples.

Results

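The syndecans and glypicans are the heparan sulfate proteoglycans that animal cells carry on their surface. The 10 mouse genes of these families, Sdc1 to Sdc4 and Gpc1 to Gpc6, were taken by their symbols from the 23238 gene symbols counted in c2c12 cells, an immortalized mouse myoblast line that is usually grown as myoblasts and fused into myotubes. They were set beside the study's question because poly(sodium-4-styrenesulfonate) (PSS), the polymer under study, is a sulfonated mimic of heparin, whereas these genes encode the core proteins that hold the cell's own sulfated chains. All groups received myogenic induction medium with 2% horse serum, and RNA was taken after 2 days. The groups were cells cultured on tissue culture plates (TCP), on hydrogels of 15% methacrylated gelatin (GelMA), and on hydrogels of 15% GelMA with 1% PSS (GelMA-PSS). There was 1 library per substrate, so differences between substrates could not be checked against replicates and are given without p-values. The RNA came from a cell line and not from muscle tissue.

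Syndecans cross the plasma membrane once, and their short cytoplasmic tails bind scaffold proteins with PDZ domains and, in Sdc4, protein kinase C alpha at focal adhesions. Glypicans are held to the outer leaflet of the membrane by a glycosylphosphatidylinositol anchor and have no cytoplasmic part. In both families the heparan sulfate chains bind growth factors such as Fgf2 and Hgf and present them to their receptors. In skeletal muscle, Sdc3 and Sdc4 are known as surface markers of satellite cells, and Gpc1 as a proteoglycan of cultured myoblasts that takes part in the handling of Fgf2.

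The libraries held 119799095 (TCP), 87071144 (GelMA) and 192171443 (GelMA-PSS) counts in total. The labelled cell type was present by its markers: 10 of 11 myogenic markers were listed under their symbols, with summed levels of 30104, 21977 and 18355 CPM (counts scaled to a common library size) in TCP, GelMA and GelMA-PSS, while 4 endothelial markers summed to at most 0.905 CPM and 4 blood markers to at most 1.72 CPM. Epithelial markers summed to between 5.43 and 10.3 CPM, adipocyte markers to at most 0.0985 CPM, and neural markers, mainly Tubb3, to 53.3, 66.0 and 102.5 CPM. Of the 10 myogenic markers, 2 were highest and 5 lowest in GelMA-PSS by CPM, beside 45.3% and 39.3% of all genes. The embryonic myosin Myh3, made in myotubes, stood at 10182, 6355 and 3037 CPM in the same order, with a log2 ratio for GelMA-PSS against GelMA of -1.07, or -0.61 after the length and GC correction described below. The regulators Myf5 (13.9, 19.5 and 36.5 CPM) and Myod1 (94.3, 105 and 119 CPM) were highest in GelMA-PSS, while Myog (1100, 895 and 1037 CPM) and Des (3299, 2863 and 3154 CPM) were highest in TCP. For GelMA-PSS against GelMA, the correction took the log2 ratio from 0.87 to 0.53 for Myf5 and from 0.19 to 0.04 for Myod1. It went from 0.21 to -0.09 for Myog and from 0.14 to 0.19 for Des. In such bulk libraries, fewer cells of a type and less RNA per cell cannot be told apart, and the part of the share of differentiated cells in the values below was not tested. Ratios are given as the quotient of CPM with TMM scaling factors, with a 95% interval that covers counting error only, and as log2 ratios of CPM + 1. A further property of the libraries touches every ratio that involves GelMA-PSS. Across 13054 genes with a known transcript length, Spearman's rho between the log2 ratio and the length stood at -0.66 in GelMA-PSS against GelMA, at -0.50 in GelMA-PSS against TCP and at 0.21 in GelMA against TCP. Therefore the log2 ratio after a loess correction for transcript length and GC content is given beside the uncorrected one for the syndecans and glypicans, and for other genes where it is large. The cause of this dependence was not tested.

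Of the 10 genes, 6 reached a CPM of 1 on some substrate, namely Sdc1, Sdc2, Sdc3, Sdc4, Gpc1 and Gpc6. The other 4 were Gpc2, just below this limit with 82, 81 and 107 counts in TCP, GelMA and GelMA-PSS, and Gpc3, Gpc4 and Gpc5, which had 7 counts or fewer in each library. All 4 syndecans thus stood above this limit, but only 2 of the 6 glypicans. In the plot of levels by substrate, the points of a gene lie close together compared with the gaps between most genes.

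**Figure D1:**
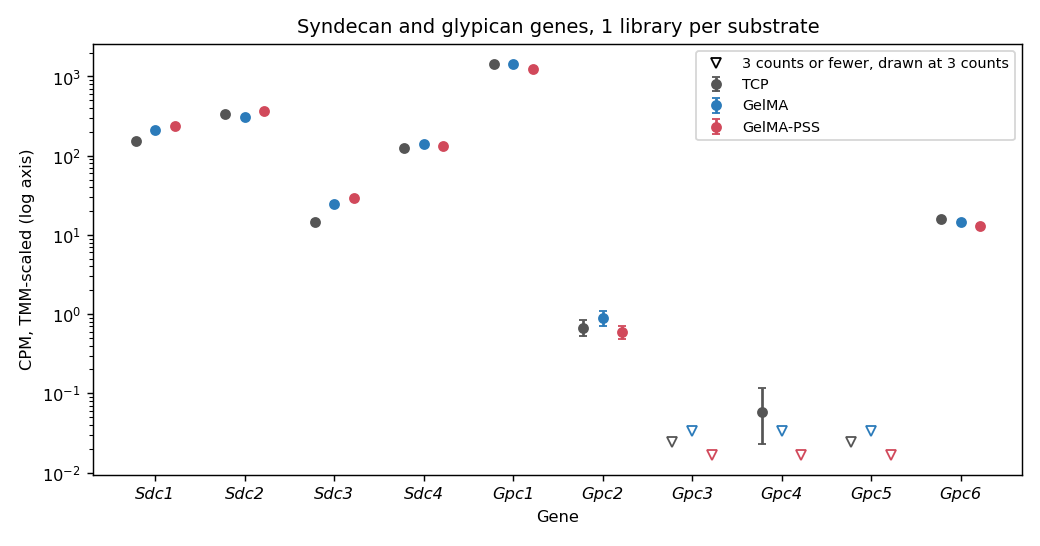
Level of each gene in CPM with TMM factors on a log axis, with 1 point per library and bars for the 95% counting interval (mostly smaller than the points). Triangles mark 3 counts or fewer and are drawn at the level of 3 counts. Gpc1 lies between 1241 and 1448 CPM on all substrates, Sdc3 is the tested gene with the widest gap between substrates (14.7 to 28.8 CPM), and Gpc3 and Gpc5 lie at or under 3 counts.

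TPM, a transcript level per length that allows a comparison between genes, put Gpc1 first in all 3 libraries. Its level was 695 TPM in TCP, 719 TPM in GelMA and 446 TPM in GelMA-PSS, above 98.2%, 98.3% and 97.4% of the genes tested. Sdc2 followed with 189, 183 and 157 TPM. The next places were held by Sdc4, with 103, 120 and 81.2 TPM, and Sdc1, with 96.8, 139 and 113 TPM, so that Sdc4 stood above Sdc1 in TCP and Sdc1 above Sdc4 in GelMA and GelMA-PSS. Gpc6 and Sdc3 were an order of magnitude lower. Gpc6 was at 13.1, 12.6 and 8.13 TPM, and Sdc3 at 5.91, 10.4 and 8.71 TPM. With the longest transcript of each gene in place of the chosen one, Gpc6 came to 8.87, 8.54 and 5.55 TPM and Sdc3 to 6.84, 12.0 and 10.2 TPM, so the order of this pair in GelMA depends on the transcript taken. Whether neighbours in this order differ beyond the spread between cultures cannot be said with 1 library each.

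The summed TPM of the 10 genes divided unevenly between the families. Glypicans, nearly all of it Gpc1, made up 64.2% in TCP, 61.8% in GelMA and 55.8% in GelMA-PSS, and syndecans 35.8%, 38.2% and 44.2%. The ratio of syndecan to glypican TPM was thus 0.556, 0.618 and 0.792, highest in GelMA-PSS. This ratio is taken within a library and does not depend on its scaling, but it does depend on the trend with length, since the transcript of Gpc1 (4176 bases) is longer than those of Sdc1 (3157 bases), Sdc2 (3527 bases) and Sdc4 (2458 bases). When the TCP level of each tested gene was moved by its corrected log2 ratio, the ratio came to 0.634 for GelMA and 0.673 for GelMA-PSS. The order of the substrates was the same, but GelMA and GelMA-PSS lay closer together. Within the pool, Gpc1 took 63.0%, 60.7% and 54.8%, Sdc2 17.1%, 15.4% and 19.3%, and Sdc1 8.77%, 11.7% and 13.9%.

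**Figure D2:**
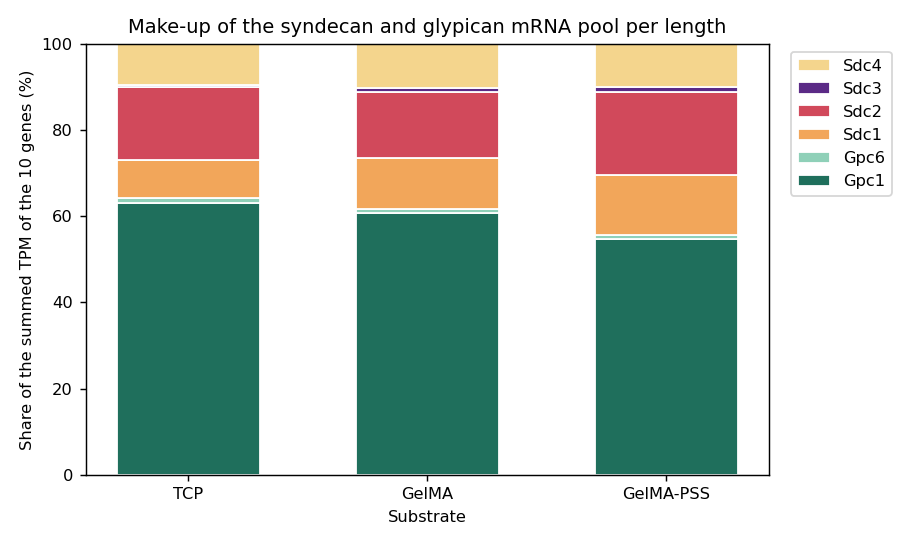
Share of each gene in the summed TPM of the 10 genes, in percent, with 1 bar per substrate. Gpc1 (dark green) takes 63.0% in TCP and 54.8% in GelMA-PSS, and Sdc1 (orange) 8.77% and 13.9%, without correction for the trend with transcript length. Gpc2, Gpc3, Gpc4 and Gpc5 have very small shares and are not drawn.

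Next, the genes were compared between substrates. None of the 6 tested genes passed 2-fold, the threshold in the methods, in any comparison. Among all 13169 genes tested, 4.10% passed it in either direction for GelMA-PSS against GelMA, 6.85% for GelMA-PSS against TCP and 1.00% for GelMA against TCP. At 1.5-fold, 0 of 6 passed for GelMA-PSS against GelMA, beside 21.8% of all genes, 2 of 6 for GelMA-PSS against TCP, beside 24.7%, and 1 of 6 for GelMA against TCP, beside 5.62%. The 2 genes past 1.5-fold in GelMA-PSS against TCP were Sdc1 and Sdc3, both higher, where 13.2% of all genes were higher past that fold. The gene past it in GelMA against TCP was Sdc3, also higher, where 3.50% of all genes were. With 6 genes, these counts do not set the families apart from the background. The comparisons share libraries, since each library enters a pair of them, so they are not independent of each other.

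By CPM, 3 of the 6 tested genes were highest in GelMA-PSS (Sdc1, Sdc2 and Sdc3), beside 45.3% of all genes, and 2 of 6 were lowest there (Gpc1 and Gpc6), beside 39.3%. These places depend on the scaling. In TPM, 0 of 6 were highest in GelMA-PSS and 4 of 6 lowest (Sdc2, Sdc4, Gpc1 and Gpc6), while of all genes 15.2% were highest and 72.3% lowest. The median log2 ratio of TPM + 1 over all genes was -0.36 for GelMA-PSS against GelMA, -0.31 for GelMA-PSS against TCP and 0.04 for GelMA against TCP. Relative to these medians, the TPM of Sdc1 stood at 0.07, 0.53 and 0.48 in the 3 comparisons and that of Sdc3 at 0.13, 0.80 and 0.68. The same differences from the median were 0.14, 0.05 and -0.08 for Sdc2 and -0.33, -0.33 and 0.01 for Gpc1. The plot of ratios by gene shows the uncorrected and corrected values side by side.

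**Figure D3:**
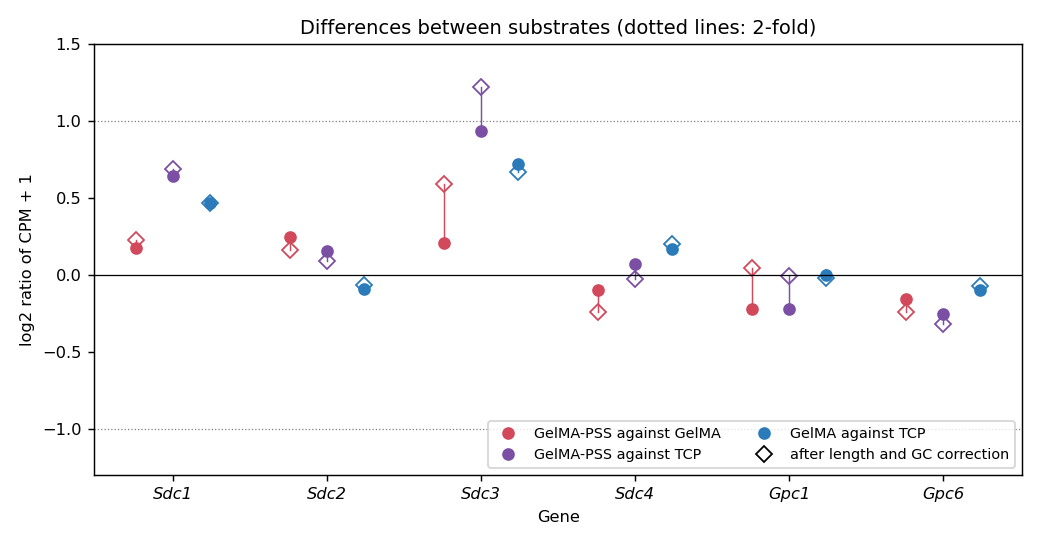
Log2 ratio of CPM + 1 for each tested gene (filled circles) and the same after the correction for transcript length and GC content (open diamonds), with 1 colour per comparison and dotted lines at 2-fold. Sdc3 against TCP moves from 0.93 to 1.22 with the correction in GelMA-PSS, Gpc1 in GelMA-PSS against GelMA from -0.22 to 0.04, and Sdc4 in GelMA-PSS against TCP from 0.07 to -0.03. In TPM without TMM factors, Sdc1, Sdc2 and Sdc3 in GelMA-PSS against GelMA and Sdc2 and Sdc4 in GelMA-PSS against TCP lie below 0.

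Among the syndecans, Sdc1 and Sdc3 stood past 1.5-fold above TCP in GelMA-PSS by CPM with TMM factors, and Sdc4 did not. In TPM without TMM factors, neither passed 1.5-fold, with log2 ratios of 0.22 for Sdc1 and 0.49 for Sdc3, and with total counts as the only scaling Sdc1 did not, at 0.53. The promoter sequences of these 3 genes are therefore given, to show what lies in front of their starts in RefSeq. They are bases just before the start of the gene in RefSeq (GRCm38.p6), written 5′ to 3′ on the strand of the gene, and the capitals mark GC boxes (GGGCGG, or CCGCCC on the other strand). For Sdc1, only the 177 bases before the first base of the GENCODE gene are shown out of its window of 250 bases. The RefSeq start of Sdc4 lies inside the span that GENCODE gives this gene. All 250 bases shown for Sdc4 also lie within that span, and they were not cut as for Sdc1.
Sdc1, chr12:8771146-8771322, plus strand: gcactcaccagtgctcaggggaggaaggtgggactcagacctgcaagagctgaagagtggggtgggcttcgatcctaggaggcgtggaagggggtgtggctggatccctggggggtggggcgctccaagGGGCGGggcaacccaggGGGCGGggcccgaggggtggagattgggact
Sdc3, chr4:130792287-130792536, plus strand: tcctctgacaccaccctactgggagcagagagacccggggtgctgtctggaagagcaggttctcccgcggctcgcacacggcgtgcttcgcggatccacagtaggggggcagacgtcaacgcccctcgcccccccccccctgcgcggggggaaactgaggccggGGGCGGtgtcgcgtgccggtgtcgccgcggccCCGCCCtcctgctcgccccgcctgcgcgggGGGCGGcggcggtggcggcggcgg
Sdc4, chr2:164443189-164443438, minus strand: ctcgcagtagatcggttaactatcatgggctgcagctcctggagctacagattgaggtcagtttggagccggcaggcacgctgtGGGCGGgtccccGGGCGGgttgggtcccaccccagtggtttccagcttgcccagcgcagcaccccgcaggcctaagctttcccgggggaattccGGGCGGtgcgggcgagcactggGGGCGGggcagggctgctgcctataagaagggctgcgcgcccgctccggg

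RefSeq entries were matched for 7 of the 10 genes. Gpc1, Sdc2 and Gpc6 were not among them. In the full windows of 250 bases, Sdc1 and Sdc3 had 3 GC boxes each and Sdc4 had 4, overlaps between matches allowed. Of 32851 promoter windows of the same length, 8.47% held at least 3 GC boxes and 4.09% at least 4. The GC content was 66.0% for Sdc1, 76.4% for Sdc3 and 68.0% for Sdc4, against a median of 52.4%. An E-box (CANNTG, which reads the same on both strands), the motif that myogenic factors such as Myod1 are known to bind, was found in the Sdc1 window with its first base at position -34 from the RefSeq start, which lies beyond the bases shown. No E-box was found in the windows of Sdc3 and Sdc4, whereas 66.2% of all windows held at least 1. The 3 promoters thus shared GC boxes. Whether either motif goes with a difference from TCP was not tested, and 3 windows could not show it. GC boxes were not particular to these 3 genes. Among the glypicans that were not tested, the windows of Gpc2 and Gpc3 held 3 GC boxes each and those of Gpc4 and Gpc5 1 each. The Gpc2 window also held 1 E-box. Such matches describe the letters in these windows and not the binding of a factor.

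Sdc3 encodes the syndecan with the largest core protein, first known from nerve and later from satellite cells. It lies on chr4:130792537-130826319 on the plus strand (GRCm38) and its transcript has 4973 bases. It had 1784 counts in TCP, 2255 in GelMA and 5226 in GelMA-PSS, or 14.7, 24.8 and 28.8 CPM. TCP was the low library. GelMA-PSS stood 1.97-fold above TCP (1.87 to 2.08, log2 ratio 0.93), where 3.72% of all genes were higher past 2-fold, and GelMA stood 1.69-fold above TCP (1.59 to 1.80, log2 ratio 0.72). GelMA-PSS stood 1.16-fold above GelMA (1.11 to 1.22, log2 ratio 0.21). Of the log2 difference of 0.93 between GelMA-PSS and TCP, 0.72 thus lay between GelMA and TCP. The log2 ratio of Sdc3 was above that of 95.4% of all genes in GelMA-PSS against TCP, of 98.1% in GelMA against TCP and of 65.1% in GelMA-PSS against GelMA.

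All genes were divided by length into 10 bins of equal size, and Sdc3 fell in bin 9, whose median log2 ratio was -0.34 for GelMA-PSS against GelMA and -0.25 for GelMA-PSS against TCP. Sdc3 was above 93.2% and 98.9% of the genes in that bin, and above 97.8% in GelMA against TCP. After the correction its log2 ratios were 0.59, 1.22 and 0.67, so that it then passed 2-fold in GelMA-PSS against TCP, where 2.01% of genes were higher past 2-fold. The antisense genes Gm12970 and Gm26716 overlap Sdc3 in the annotation, and how the authors' counting treated strand is not known. In the plot of ratios against transcript length, Sdc3 lies farther above the median line than the other syndecan and glypican genes.

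**Figure D4:**
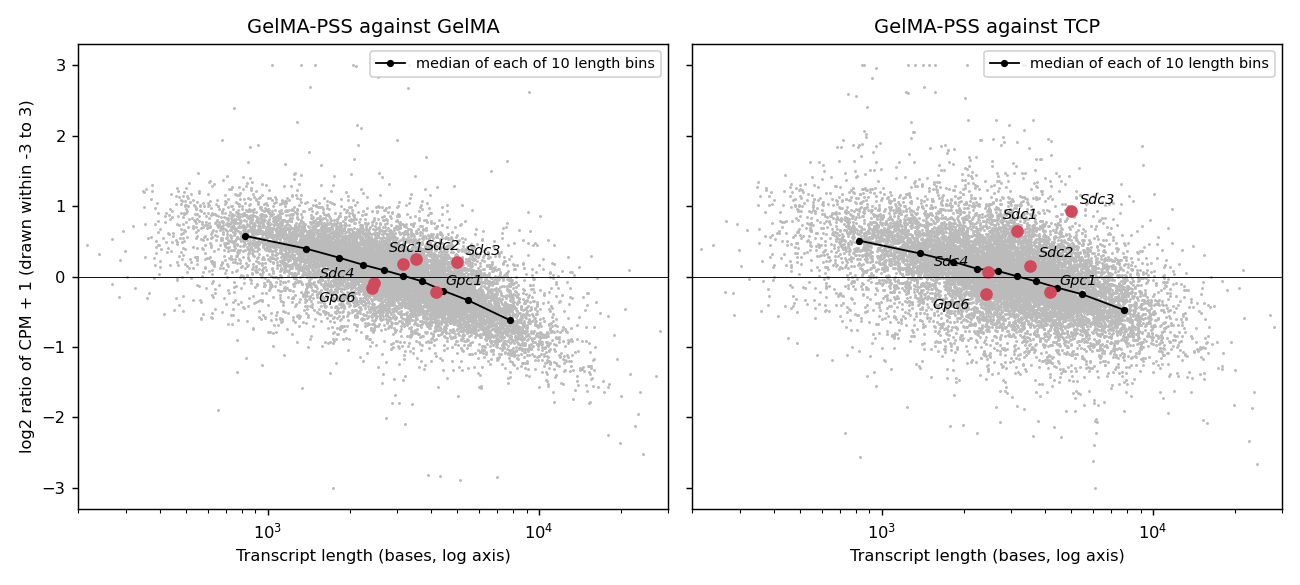
Log2 ratio of CPM + 1 against transcript length in bases on a log axis, for all genes with a length (grey, values beyond the vertical axis drawn at its edge and genes beyond the length axis not drawn) and the 6 tested syndecan and glypican genes (red). The black line joins the median ratio of each of 10 bins of genes by length, which goes from 0.58 in the shortest to -0.62 in the longest for GelMA-PSS against GelMA. Gpc1 lies next to this line in both panels. Sdc3 lies 0.55 above the median of its length bin in the left panel and 1.18 above it in the right.

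Sdc1 encodes a syndecan that is well known from epithelia and plasma cells and whose outer part is shed by proteases. It lies on chr12:8771323-8793715 on the plus strand, with 5 exons. It had 18559 counts in TCP, 19173 in GelMA and 43112 in GelMA-PSS, or 152.4, 211 and 238 CPM. As for Sdc3, TCP was the low library and GelMA-PSS the high one. GelMA-PSS stood 1.56-fold above TCP (1.53 to 1.59, log2 ratio 0.64), GelMA 1.38-fold above TCP (1.36 to 1.41, log2 ratio 0.47) and GelMA-PSS 1.13-fold above GelMA (1.11 to 1.15, log2 ratio 0.17). The correction for length and GC content left these at 0.69, 0.47 and 0.23. Sdc1 was thus higher on both hydrogels than on TCP with and without the correction, and the step from GelMA to GelMA-PSS was the smallest of the 3. No annotated gene overlaps Sdc1.

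Sdc2, the syndecan of fibroblasts and other mesenchymal cells, was the most abundant of the family. It lies on chr15:32920723-33034935 on the plus strand and had 40411, 28238 and 66867 counts in TCP, GelMA and GelMA-PSS, or 332, 311 and 369 CPM. GelMA was the low library and GelMA-PSS the high one. The ratio was 1.19 for GelMA-PSS against GelMA (1.17 to 1.20), 1.11 for GelMA-PSS against TCP (1.10 to 1.13) and 0.936 for GelMA against TCP (0.922 to 0.951). After the correction the log2 ratios were 0.16, 0.09 and -0.07, compared with 0.25, 0.15 and -0.09 before it.

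Sdc4 is the syndecan of focal adhesions, where its tail acts together with integrins. Its gene lies on chr2:164424247-164443887 on the minus strand. It had 15409 counts in TCP, 12928 in GelMA and 24075 in GelMA-PSS, which came to 127, 142 and 133 CPM, so that the libraries lay within 1.12-fold of each other (GelMA against TCP, 1.10 to 1.15). GelMA-PSS stood at 0.934 of GelMA (0.914 to 0.954) and at 1.05 of TCP (1.03 to 1.07). The direction against TCP was not stable, since the log2 ratio of 0.07 became -0.03 after the correction and -0.04 with total counts as the only scaling. The corrected log2 ratio against GelMA was -0.24. In TPM without TMM factors, Sdc4 stood at -0.56 for GelMA-PSS against GelMA, where the median of all genes was -0.36.

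Gpc1 lies on chr1:92831645-92860779 on the plus strand, with 9 exons. It had 176370 counts in TCP, 131361 in GelMA and 224836 in GelMA-PSS, or 1448, 1446 and 1241 CPM. GelMA and TCP were level, with a ratio of 0.998 (0.991 to 1.005), and GelMA-PSS was the low library. GelMA-PSS stood at 0.859 of GelMA (0.853 to 0.864) and at 0.857 of TCP (0.852 to 0.862), with log2 ratios of -0.22 and -0.22. Genes of like length had medians of -0.20 and -0.16 in these comparisons, and after the correction Gpc1 stood at 0.04 and -0.01. The lower level of the most abundant gene in the GelMA-PSS library was thus about as large as that of other transcripts of its length. Ankmy1 overlaps Gpc1 on the opposite strand, with 677, 355 and 579 counts, and Mir149 lies within it on the same strand.

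Gpc6, a glypican known from skeletal growth, spans chr14:116925315-117976544 on the plus strand. It had 1928, 1340 and 2375 counts in TCP, GelMA and GelMA-PSS, or 15.8, 14.7 and 13.1 CPM. TCP was the high library and GelMA-PSS the low one. GelMA-PSS stood at 0.889 of GelMA (0.831 to 0.951) and at 0.828 of TCP (0.779 to 0.880), and GelMA at 0.931 of TCP (0.868 to 0.999). The chosen transcript of Gpc6 has 2423 bases, and the correction moved its log2 ratios in GelMA-PSS from -0.16 to -0.24 against GelMA and from -0.25 to -0.32 against TCP. With its longest transcript, of 4146 bases, the corrected values were -0.039 and -0.16, so the direction in which the correction moved them depends on the transcript taken.

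The remaining glypicans were near or below detection. Gpc2, a glypican of developing nerve, lies on chr5:138273655-138280005 on the minus strand and was at 0.673, 0.891 and 0.591 CPM in TCP, GelMA and GelMA-PSS. GelMA-PSS stood at 0.663 of GelMA (0.492 to 0.896) and 0.877 of TCP (0.652 to 1.18), and GelMA at 1.32 of TCP (0.962 to 1.82), so that 2 of the 3 intervals include 1. Gpc4 had 7, 0 and 1 counts, which gave a ratio of 0.0960 for GelMA-PSS against TCP with an interval from 0.00213 to 0.747. Gpc3, known for its loss in an overgrowth syndrome, had 2, 2 and 3 counts. Gpc5 had 0 counts in every library, which allows up to 0.0246 CPM in TCP, 0.0330 CPM in GelMA and 0.0166 CPM in GelMA-PSS at 3 counts.

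A core protein is a heparan sulfate proteoglycan only once its chains are built, so genes that make, edit or cut the chains, or process the core proteins, or bind the syndecan tails were examined with lists written by function. Together with other heparan sulfate proteoglycans, ligands and receptors, these lists held 93 genes, of which 72 were tested. Their median log2 ratio was -0.15 for GelMA-PSS against GelMA, 0.06 for GelMA-PSS against TCP and 0.17 for GelMA against TCP, where all genes tested had 0.03, 0.04 and -0.01. After the correction the medians were 0.02, 0.13 and 0.15. Past 2-fold were 4 genes in GelMA-PSS against GelMA, 8 in GelMA-PSS against TCP and 3 in GelMA against TCP, beside 4.10%, 6.85% and 1.00% of all genes. By CPM, GelMA-PSS was highest for 26 and lowest for 30 of the 72 genes, beside 45.3% and 39.3% of all genes.

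Of 6 tested genes of the linkage region, which attach the chain, 0 passed 2-fold, near the share of all genes given above, and the largest log2 ratio against the mean of GelMA and TCP was 0.20, for Pxylp1, the phosphatase of the linkage xylose. Of the polymerases, Ext1, which elongates the chain as a complex with Ext2, had 264, 291 and 397 CPM in TCP, GelMA and GelMA-PSS, and its log2 ratio in GelMA-PSS was 0.45 with GelMA and 0.59 with TCP as the control, or 0.94 and 0.94 after the correction. Ext2 had 91.9, 103 and 102 CPM. In TPM, Ext1 stood at -0.02 against GelMA and 0.17 against TCP, above the median of all genes on that scale. Extl3 had 93.3, 102 and 61.7 CPM and Extl1 6.09, 5.69 and 2.90 CPM, and both were lowest in GelMA-PSS. The correction took them from -0.72 to -0.26 and from -0.78 to -0.55 on the log2 scale for GelMA-PSS against GelMA.

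Among 11 tested genes of sulfation and epimerisation, 0 passed 2-fold in any comparison, beside 4.10%, 6.85% and 1.00% of all genes. Ndst1, which starts the sulfation of the chain, had 69.7, 91.1 and 49.5 CPM, but its log2 ratio of -0.87 for GelMA-PSS against GelMA became -0.35 after the correction. Hs6st1, a 6-O-sulfotransferase, had 49.1, 43.4 and 29.1 CPM, Hs2st1 had 99.3, 112 and 113 CPM, and Papss1, which makes the sulfate donor, had 64.2, 81.6 and 102 CPM. The extracellular 6-O-sulfatase Sulf1 had 127, 182 and 190 CPM, and Sulf2 15.9, 14.6 and 14.5 CPM. Sulf1 was thus higher on both hydrogels than on TCP by CPM. Its log2 ratio for GelMA-PSS against TCP was 0.58, or 0.80 after the correction and 0.16 in TPM without TMM factors. By CPM, 22.5% of all genes rose from TCP to GelMA to GelMA-PSS, as Sulf1, Sdc1 and Sdc3 did.

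Of the genes of chain breakdown, 9 were tested. Hpse, the heparanase that cuts the chain, was the only one past 2-fold, in GelMA-PSS against TCP, where 6.85% of all genes passed it in either direction. It had 269, 472 and 1543 counts, or 2.21, 5.19 and 8.52 CPM, and its log2 ratio in GelMA-PSS was 0.62 with GelMA and 1.57 with TCP as the control. Sgsh, a lysosomal sulfatase of heparan sulfate, was lowest in GelMA-PSS, with 15.2, 13.2 and 9.58 CPM, and its log2 ratio of -0.43 for GelMA-PSS against GelMA became -0.17 after the correction. Among genes that process or shed core proteins, 6 were tested and 0 passed 2-fold, again near the share of all genes. Mmp14, a membrane protease known to shed Sdc1, had 310, 287 and 219 CPM and differed most in GelMA-PSS from the mean of GelMA and TCP, while Furin, a protease that processes precursor proteins, had 115, 140 and 96.7 CPM and differed most between GelMA-PSS and GelMA. Notum, also on this list, had 42, 52 and 85 counts and was not tested.

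**Figure D5:**
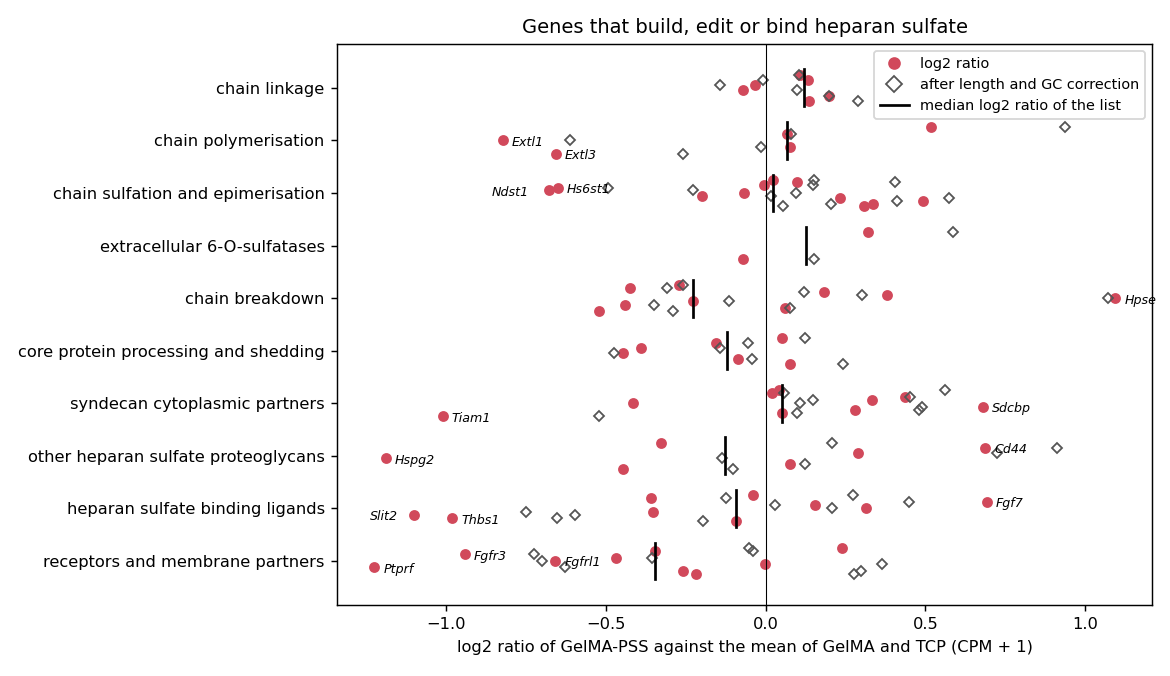
Log2 ratio of GelMA-PSS against the mean of GelMA and TCP, on CPM + 1, for the tested genes of each list (red circles), with the length and GC correction (grey diamonds), and the median of the uncorrected values (black bars). Names are given beyond 0.6. Hpse at 1.09 and Ptprf at -1.22 mark the ends of the uncorrected values, and Hspg2 moves from -1.19 to -0.14 with the correction. These values are in CPM, and the median of all genes lies lower for GelMA-PSS in TPM without TMM factors.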

How the data were processed

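Gene expression was measured by RNA-seq in c2c12 cells after 2 days of myogenic induction, in 1 library for each of TCP, GelMA and GelMA-PSS. For each library the authors deposited a table of raw counts by gene symbol, made from 101 bp paired-end reads. Their processing notes name TopHat, edgeR, mm10 and hg19 without a role, and the counting tool and annotation are not given in the sources used here. The methods name a TruSeq kit and the labels a SMARTER kit, and whether both reads of a pair were counted is unknown, in which case the intervals are too narrow. The methods rest on FPKM, which was not used here.

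Lines sharing 1 of 35 duplicated symbols were summed. Counts were scaled to CPM with TMM factors (edgeR 4.0.16, R 4.3.3; 1.02, 1.04 and 0.943 for TCP, GelMA and GelMA-PSS), and the 13169 genes that reached a CPM of 1 on some substrate were compared by fold (called tested here), with no statistical test. Ratios used log2(CPM + 1), which understates low genes, and exact conditional binomial intervals at 95% (scipy 1.17.1) that cover counting error only. Lengths, GC content and positions came from GENCODE vM21 (GRCm38), with the transcript of the longest coding sequence. The correction subtracted loess fits (statsmodels 0.14.6, span 0.3). The scripts were tested on simulated data. All 10 genes are named whatever their values, and of each list up to 4 genes with the largest log2 ratio of GelMA-PSS against the mean of the others and those with a fixed role, apart from a result that was left out. The members and lists were chosen with earlier results of these data known. Alternatives covered scaling, pseudocount, filter, fold threshold, duplicated symbols, transcript length and the correction.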

Additional observations from a re-analysis of the deposited data

How the results depend on the processing

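No paired analysis was possible because each substrate had 1 library, and for the same reason no library could be left out. For GelMA-PSS against TCP, the number of the 6 genes past 2-fold was 0, but 1 (Sdc3) after the length and GC correction, also 1 (Sdc3) when this correction used the longest transcript, and 2 (Sdc1 and Sdc3) at 1.5-fold. For GelMA against TCP it was 0, and 1 (Sdc3) at 1.5-fold. The other alternatives gave 0 in all 3 comparisons. Of the single log2 ratios, Sdc4 in GelMA-PSS against TCP changed sign to -0.0377 with total counts, to -0.0262 with the correction, to -0.0893 with the correction by the longest transcript and to -0.34 in TPM without TMM factors. Gpc1 in GelMA-PSS against GelMA changed sign to 0.0433 with the correction. In TPM without TMM factors, Sdc1, Sdc2 and Sdc3 in GelMA-PSS against GelMA came to -0.29, -0.22 and -0.23, and Sdc2 in GelMA-PSS against TCP to -0.26, where the medians of all genes were -0.36 and -0.31. These changes of sign follow the setting, and their cause was not tested. TPM and the correction by the longest transcript were added after seeing the data.

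With median-of-ratios size factors, a pseudocount of 0.1 CPM or 1 line per duplicated symbol, 18 of 18 log2 ratios moved by less than their counting interval. Over all genes, the pseudocount of 0.1 CPM moved the number past 2-fold from 540, 902 and 132 to 881, 1328 and 319 in GelMA-PSS against GelMA, GelMA-PSS against TCP and GelMA against TCP, the correction to 244, 576 and 119, and TPM to 1069, 1186 and 116. Depth limits Gpc3, Gpc4 and Gpc5, which had 7 counts or fewer per library, and leaves wide counting intervals for Gpc2.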

Other observations

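The partners that bind the syndecan tails inside the cell were also examined. Sdcbp (syntenin), the PDZ scaffold of all syndecans, had 118, 141 and 207 CPM in TCP, GelMA and GelMA-PSS. Its log2 ratio was 0.56 for GelMA-PSS against GelMA and 0.81 for GelMA-PSS against TCP, or 0.35 and 0.64 with the length and GC correction, and 0.09 and 0.39 in TPM without TMM factors. Ezr, which links membrane proteins to actin, had 108, 148 and 172 CPM. Tiam1, an exchange factor for Rac that binds the Sdc1 tail, had 8.24, 11.8 and 4.40 CPM, with a log2 ratio of -1.24 for GelMA-PSS against GelMA and -0.67 after the correction. Prkca, the kinase that Sdc4 binds, had 41.5, 48.2 and 33.3 CPM, and its log2 ratio of -0.52 for GelMA-PSS against GelMA became 0.09 after the correction. By CPM, 6 of 9 tested partners were highest and 2 lowest in GelMA-PSS, beside 45.3% and 39.3% of all genes. In TPM without TMM factors, Sdcbp was the only tested partner highest there, beside 15.2% of all genes. Ezr and Src then lay between GelMA and TCP, and the other tested partners were lowest, beside 72.3% of all genes. Such counts thus depend on the scaling.

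Among other carriers of heparan sulfate, Hspg2 (perlecan), a basement membrane proteoglycan with a transcript of 14176 bases, had 1693, 2043 and 816 CPM. Its log2 ratio of -1.32 for GelMA-PSS against GelMA was -0.09 after the correction. Cd44, a part-time proteoglycan and hyaluronan receptor, had 377, 538 and 726 CPM, with a log2 ratio of 0.94 for GelMA-PSS against TCP and 1.13 after the correction. Agrn had 40.2, 48.0 and 34.8 CPM and Tgfbr3 3.11, 4.87 and 2.61 CPM, and their log2 ratios of -0.45 and -0.70 for GelMA-PSS against GelMA became 0.16 and -0.31 after the correction. Col18a1, which was not among the genes the rule names and was added after its values were seen, had 63.3, 144 and 117 CPM. It was the only gene of this list past 2-fold in GelMA against TCP, where 1.00% of all genes passed it in either direction.

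Of 13 ligands that bind heparan sulfate, 9 were tested. Fgf2 had 110, 133 and 125 counts, or 0.903, 1.46 and 0.690 CPM. Fgf7 had 2.67, 6.49 and 7.47 CPM, with log2 ratios of 1.21 for GelMA-PSS and 1.03 for GelMA against TCP. After the correction these were 0.99 and 1.08, and in TPM without TMM factors 0.79 and 1.01. On both of these scales GelMA-PSS against TCP was thus below 2-fold. Hgf, named after its values were seen, had 21.3, 59.4 and 44.6 CPM. Slit2 had 60.5, 61.1 and 27.8 CPM and Thbs1 1230, 903 and 534 CPM, with log2 ratios of -1.09 and -1.20 for GelMA-PSS against TCP, or -0.66 and -0.92 after the correction. By CPM, 6 of 9 tested receptors and membrane partners were lowest in GelMA-PSS, beside 39.3% of all genes. In TPM without TMM factors, each of the 9 was lower there than in GelMA and in TCP, beside 72.3% of all genes. The median log2 ratio of these receptors and partners by CPM was -0.49 for GelMA-PSS against GelMA, and -0.12 after the correction. Corrected log2 ratios for GelMA-PSS against TCP were above 0 for Fgfr1 (0.06), Ptprs (0.46), Robo1 (0.53) and Met (0.59). Those of Fgfr3 (-1.03), Fgfrl1 (-1.03), Ptprf (-0.85), Fgfr4 (-0.59) and Cd81 (-0.08) were below 0. Ptprs, Robo1, Met and Cd81 were named after their values were seen. Fgfr1 had 262, 318 and 227 CPM, Fgfr4 26.2, 18.8 and 15.8 CPM, Fgfr3 12.6, 8.17 and 4.82 CPM, Fgfrl1 62.0, 38.4 and 30.6 CPM, and Ptprf, a phosphatase receptor, 120, 99.4 and 46.3 CPM. The log2 ratio of Ptprf for GelMA-PSS against GelMA was -1.09, and -0.40 after the correction.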
